A study of Mus musculus with 8 samples.

Results

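Dlk1 and 9 other imprinted growth genes were followed in whole lungs of mice with K-ras-mutant lung tumors, with and without the STAT3 inhibitor TTI-101. The 10 genes are the rows of the deposited gene table named Dlk1, Meg3, Rian, Mirg, H19, Igf2, Cdkn1c, Peg3, Plagl1 and Mest, out of 54532 genes in all. They were chosen by their values in this contrast, because Dlk1 stood out in the comparison of TTI-101-treated with control lungs in these same libraries, together with the other genes of its imprinted cluster and the best known imprinted growth genes of other clusters. Their differences between the groups are therefore a description, and no test is given for them. An imprinted gene is transcribed mainly from the copy inherited from one parent. Paternally expressed genes such as Igf2, Dlk1, Peg3, Plagl1 and Mest and maternally expressed genes such as H19, Cdkn1c and Meg3 sit in clusters in which methylation of a control region sets which copy is used. Many of these genes are high in the fetus and decline after birth, and Dlk1, a transmembrane relative of the Notch ligands, is best known for holding back adipocyte differentiation and for marking immature cells.

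All 8 mice were CC-LR mice, a strain in which the K-rasG12D allele stays silent until Cre, driven from the CCSP (club cell secretory protein) locus, removes a stop cassette in airway epithelium. Lungs were taken at 14 weeks of age from 4 control mice and from 4 mice after 4 weeks of TTI-101, a small-molecule inhibitor of STAT3, and each lung gave 1 library. The labels give neither the vehicle of the controls nor the route of the drug for these mice, nor the sex of each mouse, and there was no group without mutant K-ras. Whole lung holds tumor, normal epithelium, stroma, vessels and blood, so fewer cells that express a gene and less RNA of it per cell cannot be told apart. The libraries held 16446481 to 26873509 counts for control mice and 16075855 to 25920509 counts for treated mice. Control mouse 4 stood apart from the other mice on the first principal component of log2 CPM, at 101 against -39.3 to 17.9, with 5.56% of its counts on mitochondrial genes against 2.01 to 2.85% elsewhere. Some of the values that it moved, but not all, are also given without it. CPM is the count scaled to a common library size after the library scaling of edgeR, a fold change is TTI-101-treated over control from edgeR's fit across all genes, and p-values measure only the spread between these 8 mice.

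Dlk1, Meg3, Rian and Mirg lie in this order on the forward strand of chromosome 12 (build GRCm38), in the cluster that ends with Dio3. Dlk1 (ENSMUSG00000040856) is a protein-coding gene at chr12:109452823-109463336. Meg3 (ENSMUSG00000021268, chr12:109541001-109571726), Rian (ENSMUSG00000097451, chr12:109603940-109661716) and Mirg (ENSMUSG00000097391, chr12:109729764-109749460) are long non-coding RNAs of the maternal copy, and Rian and Mirg host snoRNAs and miRNAs. The regions around the starts of Dlk1, Meg3 (the first of 2 starts listed) and Rian are printed from RefSeq (build GRCm38.p6), since these are the genes of the cluster with the largest fitted differences between the groups. Each runs from 250 bases before to 50 bases after the annotated start, on the forward strand, and capitals mark CpG dinucleotides, the sites at which imprinted regions carry methylation.
Dlk1, chr12:109452573-109452872: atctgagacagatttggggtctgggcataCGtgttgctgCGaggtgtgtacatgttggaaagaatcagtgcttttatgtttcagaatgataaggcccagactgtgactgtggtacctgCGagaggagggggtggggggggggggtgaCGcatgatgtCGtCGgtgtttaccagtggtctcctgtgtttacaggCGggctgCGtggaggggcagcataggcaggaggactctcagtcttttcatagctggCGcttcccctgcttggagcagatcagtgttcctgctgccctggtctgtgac
Meg3, chr12:109540746-109541045: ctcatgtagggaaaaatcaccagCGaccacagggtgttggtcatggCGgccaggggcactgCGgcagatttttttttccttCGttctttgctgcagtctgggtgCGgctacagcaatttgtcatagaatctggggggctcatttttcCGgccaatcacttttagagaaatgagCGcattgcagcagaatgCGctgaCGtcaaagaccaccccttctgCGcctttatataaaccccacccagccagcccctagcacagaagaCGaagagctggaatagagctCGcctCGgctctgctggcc
Rian, chr12:109603695-109603994: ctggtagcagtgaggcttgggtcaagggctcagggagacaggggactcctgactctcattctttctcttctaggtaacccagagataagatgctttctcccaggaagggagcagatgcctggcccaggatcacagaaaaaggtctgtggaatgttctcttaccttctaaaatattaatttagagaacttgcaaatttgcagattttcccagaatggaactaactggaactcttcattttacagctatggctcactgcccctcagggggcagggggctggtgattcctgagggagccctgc
The window held 9 CpG in Dlk1, 13 in Meg3 and 0 in Rian, where the median over 32851 RefSeq promoter windows of this length was 7. The window at the second listed start of Meg3 (chr12:109545148-109545447) held 1 CpG. Both strands were searched for the core STAT motif TTCNNNGAA, the cAMP response element TGACGTCA and the TATA box TATAAA, which are present in 8.30%, 1.79% and 13.6% of all windows. The Dlk1 window held none of these letters. The first Meg3 window held the cAMP response element and the TATA box, the second held none of the 3, and the Rian window held the STAT motif 1 time. A match of letters in a window is a description of sequence and was not measured as binding here.

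Several of the 10 genes are also hosts of miRNAs, small RNAs whose seed (bases 2 to 8) pairs with target messages. RefSeq (GRCm38.p6) places 3 mature miRNAs inside Meg3, 6 inside Rian, 26 inside Mirg, 2 inside H19, 2 inside Igf2 and 2 inside Mest. Mature sequences are shown for 1 or more arms per host, with the seed in capitals, to show what the host transcripts measured here carry.
miR-770-5p in Meg3: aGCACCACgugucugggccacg
miR-370-3p in Rian: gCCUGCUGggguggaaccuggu
miR-410-3p in Mirg: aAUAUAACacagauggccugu
miR-453 in Mirg: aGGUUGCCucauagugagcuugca
miR-496a-5p in Mirg: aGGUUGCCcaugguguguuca
miR-675-5p in H19: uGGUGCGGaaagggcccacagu
miR-483-3p in Igf2: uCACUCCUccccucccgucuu
miR-335-5p in Mest: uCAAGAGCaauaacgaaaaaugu
Within Mirg, miR-453 and miR-496a-5p shared the seed GGUUGCC, while the other sequences shown had different seeds. The libraries were made from poly(A) RNA and did not measure the mature forms. The 67 miRNA genes listed between Meg3 and Dio3 held 20 counts in all 8 libraries together, and the 23 snoRNA genes there held 9, so that only the long host transcripts are described.

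Dlk1 was lower in every TTI-101-treated lung than in any control lung. It was at 23.7, 8.37, 9.21 and 16.4 CPM in control mice 1 to 4 and at 1.62, 4.92, 1.89 and 2.01 CPM in TTI-101-treated mice 1 to 4. The counts behind these values were 645, 140, 166 and 257 in control and 43, 82, 34 and 33 in treated mice. The means were 14.4 ± 7.15 CPM (SD, n = 4) and 2.61 ± 1.55 CPM (SD, n = 4), a log2 fold change of -2.48 (standard error 0.45) or 5.57-fold lower. The groups did not overlap, and the highest treated lung, that of mouse 2, lay below control mouse 2, the lowest control lung. Over all genes tested, 1.43% had groups that did not overlap in this direction, and Dlk1 is among them because of how it was chosen. The difference was -2.41 when control mouse 4 was left out, -2.97 when treated mouse 2 was left out and -2.12 when control mouse 1, the lung with the highest level, was left out.

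**Figure D1:**
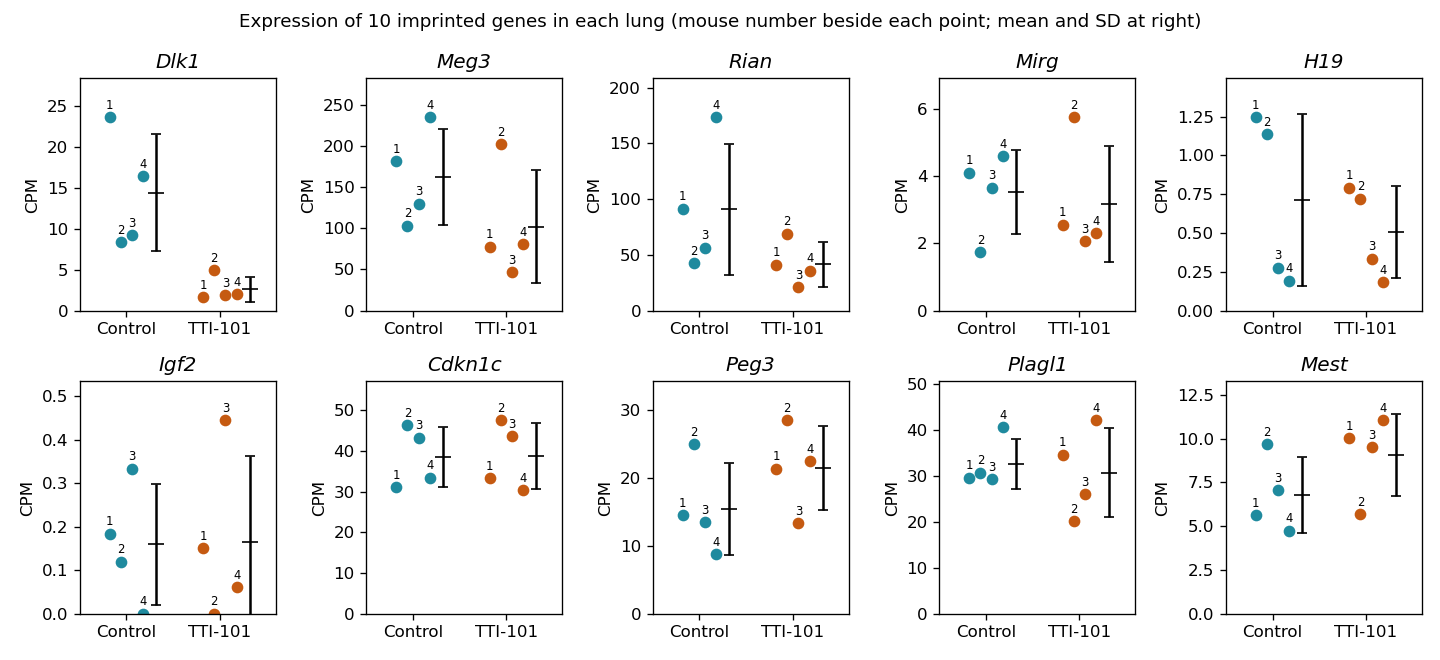
Expression in CPM (linear axes from 0, scaled for each gene) of the 10 imprinted genes, with 1 point per mouse numbered by mouse and the mean with its SD to the right (cut at 0 for Igf2). Dlk1 is the gene whose 4 treated lungs, at 1.62 to 4.92 CPM, all lie below the control lungs, at 8.37 to 23.7 CPM.

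Meg3, the long non-coding RNA of the maternal copy, had the highest CPM of the 10 genes. It was at 182, 103, 130 and 235 CPM in control mice 1 to 4 and at 77.6, 202, 46.6 and 80.8 CPM in treated mice 1 to 4. Of the treated lungs, 3 lay below every control lung, while treated mouse 2 was above 3 of the 4 control lungs. The means were 163 ± 58.5 and 102 ± 68.6 CPM (SD, n = 4 each), with a log2 fold change of -0.68 (standard error 0.41). This value rested on single mice, since it was -1.24 without TTI-101-treated mouse 2 and -0.44 without control mouse 4.

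Rian, which lies downstream of Meg3, was at 91.6, 42.7, 56.4 and 174 CPM in control and at 41.1, 69.1, 20.8 and 35.8 CPM in treated mice. Again 3 of the 4 treated lungs were below every control lung and treated mouse 2 was not. The log2 fold change was -1.13 (standard error 0.45), and it was -0.60 without control mouse 4, the lung with most Rian, and -1.47 without treated mouse 2. Mirg, the most distal host transcript, was at 4.11, 1.73, 3.66 and 4.61 CPM in control and at 2.56, 5.76, 2.06 and 2.31 CPM in treated mice. The groups overlapped and the highest level was in treated mouse 2. Its log2 fold change was -0.16 (standard error 0.41) and ranged from -0.60 without treated mouse 2 to 0.00 when another mouse was left out.

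Treated mouse 2 thus had the highest level of its group for all 4 genes of the cluster. Ratios between the genes cancel a level shared within a lung. Those of Dlk1 to another gene are a description only, since Dlk1 was chosen for its difference between these groups. Per 100 units of Meg3 CPM, Dlk1 was at 13, 8.12, 7.08 and 6.98 in control and at 2.09, 2.44, 4.06 and 2.49 in treated mice. All 4 treated lungs were below all control lungs, with a difference of -1.67 on the log2 scale that ranged from -1.87 to -1.46 when each mouse was left out in turn. Per 100 units of Rian, Dlk1 was at 25.8, 19.6, 16.3 and 9.46 in control and at 3.94, 7.12, 9.07 and 5.60 in treated mice, a log2 difference of -1.44 with a narrow gap between the groups. Per 100 units of Meg3, Rian differed by -0.22 on the log2 scale with overlapping groups. Mirg per 100 units of Meg3 was 2.26, 1.68, 2.81 and 1.96 in control and 3.30, 2.85, 4.42 and 2.86 in treated mice, a log2 difference of 0.63. The groups did not overlap, but the gap was very narrow (2.81 in control mouse 3 and 2.85 in treated mouse 2) and Mirg had only 29 to 112 counts per lung.

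**Figure D2:**
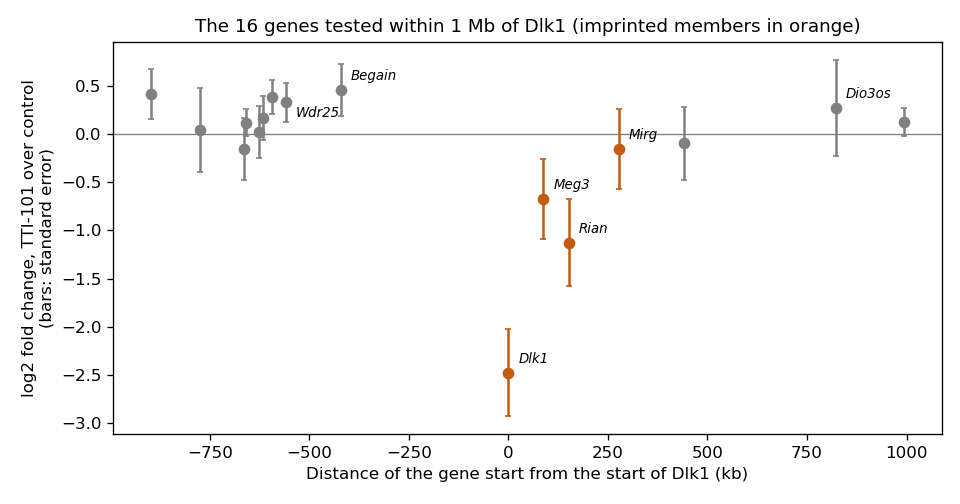
Log2 fold change (TTI-101 over control) with its standard error for the 16 genes tested within 1 Mb of Dlk1, against the distance of the gene start from that of Dlk1 in kb. Dlk1 at -2.48, Rian at -1.13 and Meg3 at -0.68 lie below the 12 genes that are not members, which range from -0.16 to 0.45.

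The genes around the cluster were read to see how far the lower levels reached. Of 145 genes starting within 1 Mb of Dlk1, 16 were tested, among them the 4 members. The quasi-likelihood test of edgeR called 0.0% of all 17138 genes tested at an adjusted p under 0.05, 6.61% were under an unadjusted p of 0.05 and 0.677% under 0.01. Of the 12 neighbours, 0 were called and 0 were under an unadjusted p of 0.05, while over all genes DESeq2's Wald test called 4 at an adjusted p under 0.05 (0.0126% of 31769) and limma-voom called 0. Their median log2 fold change was 0.14, against 0.00 over all genes tested, and their range was -0.16 to 0.45. Begain, which lies upstream of Dlk1 and is imprinted in some tissues, was at 6.71 ± 1.90 CPM in control lungs and 9.20 ± 2.15 CPM in treated lungs (SD, n = 4 each), with overlapping groups. Wdr25 was the neighbour whose groups did not overlap, at 5.30 ± 0.724 and 6.66 ± 0.548 CPM (SD, n = 4 each), or a fold change of 0.33 ± 0.21 (SE) on the log2 scale toward higher levels, where 1.53% of all genes tested did not overlap in this direction. Rtl1, a paternally expressed gene derived from a retrotransposon, held 24 counts in all 8 libraries and Dio3, the deiodinase that inactivates thyroid hormone, held 43, and neither was tested.

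H19 and Igf2 share a cluster on the reverse strand of chromosome 7, where H19 is the maternal non-coding RNA and Igf2 the paternal growth factor. Both were near the limit of these libraries. H19 (ENSMUSG00000000031, chr7:142575529-142578143) had 34, 19, 5 and 3 counts in control and 21, 12, 6 and 3 counts in treated mice, or 0.713 ± 0.555 and 0.507 ± 0.295 CPM (SD, n = 4 each). Mice 1 and 2 were above mice 3 and 4 in both groups, and the groups overlapped. The log2 fold change was -0.49 (standard error 0.67), and it ranged from -0.81 to -0.05 when each mouse was left out. Igf2 (ENSMUSG00000048583, chr7:142650766-142666816) had 5, 2, 6 and 0 counts in control and 4, 0, 8 and 1 counts in treated mice and did not pass the filter on low counts. The count of 0 allows a level of up to 0.192 CPM in control mouse 4 and 0.180 CPM in treated mouse 2, from counting error alone, and no fold change is given. An antisense gene that overlaps Igf2, Igf2os, held 42 counts, more than the 26 of Igf2 itself.

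Cdkn1c (ENSMUSG00000037664, chr7:143458339-143461050), the maternally expressed inhibitor of cyclin-dependent kinases known as p57, lies in the neighbouring cluster of the same chromosome. It was at 31.1, 46.3, 43.2 and 33.4 CPM in control and at 33.2, 47.6, 43.5 and 30.4 CPM in treated mice. The 2 sets of values lay almost on top of each other, with means of 38.5 ± 7.39 and 38.7 ± 8.17 CPM (SD, n = 4 each) and a log2 fold change of 0.01 (standard error 0.19). Of 91 genes starting within 1 Mb of H19, 30 were tested, and the 28 that are not members had a median log2 fold change of -0.06, with a range of -0.80 to 0.86. At an adjusted p under 0.05, 0 were called by edgeR, and 1, Tspan32, was under an unadjusted p of 0.05 (0.86 ± 0.29 (SE) on the log2 scale, with an adjusted p = 0.657 from edgeR). Kcnq1ot1, the non-coding RNA whose transcription silences Cdkn1c on the paternal copy, was at 16.3 ± 7.18 CPM in control lungs and 11.9 ± 2.89 CPM in treated lungs (SD, n = 4 each), with overlapping groups.

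The paternally expressed genes Peg3, Plagl1 and Mest, each of another cluster, had groups that overlapped. Peg3 (ENSMUSG00000002265, chr7:6703892-6730431), a zinc finger protein, was at 14.5, 25.0, 13.5 and 8.76 CPM in control and at 21.4, 28.6, 13.4 and 22.5 CPM in treated mice. The groups overlapped, with a log2 fold change of 0.47 (standard error 0.32) that was 0.81 without control mouse 2 and 0.30 without control mouse 4. Plagl1 (ENSMUSG00000019817, chr10:13060504-13131694), a zinc finger transcription factor also called Zac1, was at 29.6, 30.7, 29.2 and 40.6 CPM in control and at 34.6, 20.1, 26.0 and 42.1 CPM in treated mice. Treated mouse 2 was the lowest lung and treated mouse 4 the highest, and the log2 fold change was -0.08 (standard error 0.23). Mest (ENSMUSG00000051855, chr6:30723547-30748465), an enzyme of the hydrolase family linked to adipocyte size, was at 5.61, 9.68, 7.05 and 4.73 CPM in control and at 10.0, 5.70, 9.51 and 11.1 CPM in treated mice. It was high in treated mice 1, 3 and 4, where Dlk1 was lowest, and low in treated mouse 2, with a log2 fold change of 0.42 (standard error 0.29) that was 0.66 without control mouse 2 and 0.31 without control mouse 4. Mest overlaps Copg2 on the opposite strand, which held 7132 counts against 1230 for Mest, and since the strand setting of the counting is not given in the sources used here, a part of its counts may belong to Copg2.

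**Figure D3:**
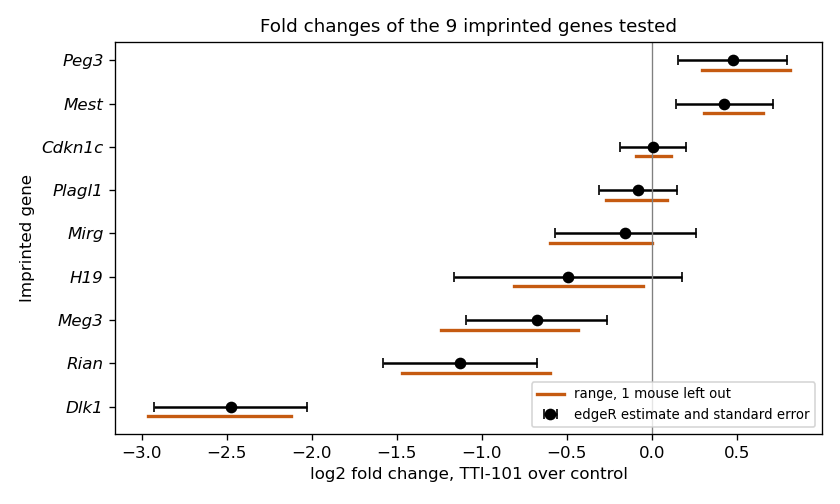
Log2 fold change (TTI-101 over control) of the 9 imprinted genes that passed the filter, as edgeR's estimate with its standard error (black) and the range when each mouse is left out in turn (orange). Dlk1 lies at -2.48 with a range of -2.97 to -2.12, and Peg3 and Mest lie above 0 at 0.47 and 0.42.

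Levels of different genes were compared per length, as FPKM, the mean over all 8 lungs. Cdkn1c was the highest at 18.9 FPKM and was above Meg3, at 7.31, in 8 of 8 lungs. Meg3, Plagl1 at 4.04, Rian at 3.64, Mest at 2.01, Dlk1 at 1.51 and Peg3 at 1.39 FPKM followed, and each of these neighbours in the order overlapped in range. Dlk1 was above Peg3 in 3 of 4 control lungs and in 0 of 4 treated lungs. Mirg at 0.460, H19 at 0.248 and Igf2 at 0.0282 FPKM closed the order, with Peg3 above Mirg in 8 of 8 lungs.

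The genes of the Dlk1 cluster also varied together from mouse to mouse within the groups. For each gene, the deviation of log2 CPM from the mean of its group was correlated over the 8 mice, as a description in libraries that the genes share. The 6 pairs among Dlk1, Meg3, Rian and Mirg had a Pearson r of 0.73 to 0.91 (median 0.83). The 4 pairs of these genes with Mest had an r of -0.94 to -0.84, although Mest lies on another chromosome. The other 26 pairs had an r of -0.77 to 0.64, with a median of -0.06. Without control mouse 4 and treated mouse 2 (n = 6) the pattern was weaker and included other genes. The r of Dlk1 was then 0.61 with Meg3, 0.64 with Rian and 0.61 with Mirg, while that of Meg3 with Rian was 0.98. The r of Mest was -0.87 with Mirg and -0.79 with Dlk1, but -0.57 with Rian and -0.48 with Meg3. In these 6 mice Cdkn1c, of another cluster, had an r of -0.97 with Meg3 and -0.95 with Rian, against -0.09 and -0.35 in all 8. Among the 15916 genes with a mean of at least 1 CPM, ranked by the r of their deviations with those of Dlk1, Meg3 was at place 54, Mirg at place 58 and Rian at place 211, and Mest at place 18 from the bottom.

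**Figure D4:**
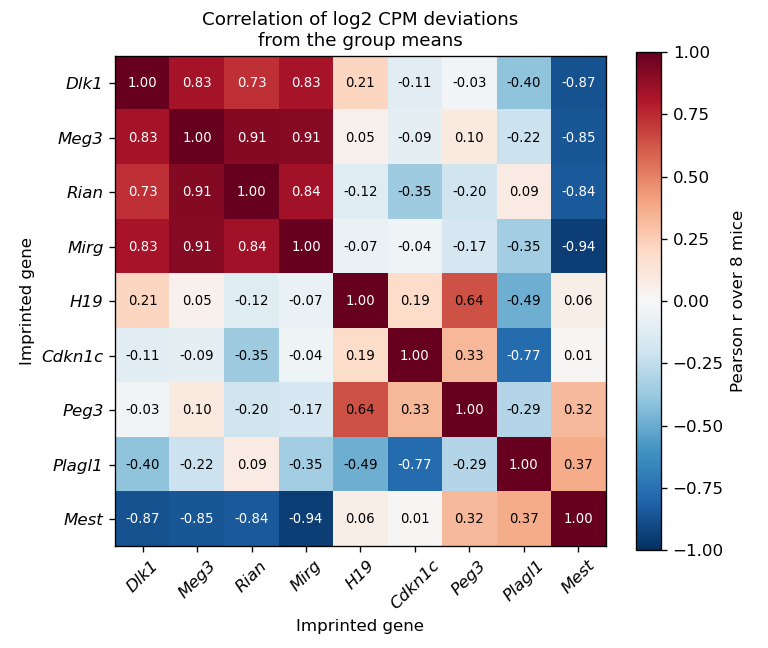
Pearson r over 8 mice between the deviations of log2 CPM from the group means for each pair of the 9 imprinted genes tested (red positive, blue negative). The block of Dlk1, Meg3, Rian and Mirg holds values of 0.73 to 0.91, and the Mest row holds values of -0.94 to -0.84 against these 4 genes, of which those with Meg3 and Rian are -0.48 and -0.57 without control mouse 4 and treated mouse 2.

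The 5 genes most like Dlk1 by each measure held none of the imprinted genes listed here. They were picked for the highest r among 15916 genes over only 8 mice, so high values follow from the choice and no test is given. By log2 CPM over the 8 mice, which includes the difference between the groups, the closest were Ivl (r = 0.95), Sec22a (r = 0.94), Pdss2 (r = 0.94), Zfp612 (r = 0.93) and Itgae (r = 0.93). Ivl, the gene of involucrin, a protein of the keratinocyte envelope, was at 2.00 ± 0.777 CPM in control lungs and 0.848 ± 0.340 CPM in treated lungs (SD, n = 4 each). By deviations from the group means, the closest were Slc35g1 (r = 0.98), Spaar (r = 0.97), Wdr91 (r = 0.97), Hkdc1 (r = 0.96) and Nos2 (r = 0.95). Nos2, the inducible nitric oxide synthase, was at 7.48, 3.53, 3.55 and 7.29 CPM in control and at 5.05, 9.79, 4.95 and 6.33 CPM in treated mice, with overlapping groups.

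Markers of the cell types of the lung were read beside these values. Of 8 markers of alveolar type 2 cells, which make surfactant, 8 had a lower fitted level in treated lungs and 0 were under an unadjusted p of 0.05, with a median log2 fold change of -0.40 that was -0.19, with 7 of 8 lower, when control mouse 4 was left out. Their summed level was 41730 to 74200 CPM in control and 32690 to 59230 CPM in treated lungs, and no marker was at 0. The mean log2 CPM of the 8 markers was 11.09 ± 0.38 in control and 10.74 ± 0.29 in treated lungs (SD, n = 4 each). Its deviations from the group means correlated with those of Meg3 (r = 0.93), Dlk1 (r = 0.81) and Mest (r = -0.91) over the 8 mice, and without control mouse 4 and treated mouse 2 (n = 6) the r was 0.94 for Meg3 and 0.82 for Dlk1. Over all 16 marker lists with a tested gene, the r ranged from -0.45 (endothelial) to 0.81 (alveolar type 2) for Dlk1 and from -0.71 (endothelial) to 0.93 (alveolar type 2) for Meg3. Without the same 2 mice, other lists had an r as far from 0, since for Dlk1 that of ciliated cells was -0.97, of neuroendocrine cells -0.94, of cardiomyocytes -0.91 and of B cells 0.88, and for Meg3 that of proliferation genes was -0.94 and of pericytes and smooth muscle -0.92. With the alveolar type 2 marker mean subtracted from the log2 CPM of each lung, the groups differed by -2.08 for Dlk1, -0.69 for Rian, -0.47 for Meg3, 0.16 for Mirg and 0.78 for Mest. The differences in log2 CPM itself were -2.43, -1.04, -0.82, -0.19 and 0.43 in the same order. In the subtracted values the groups overlapped for Rian, Meg3, Mirg and Mest and did not for Dlk1. For Dlk1 this is a description only, since it was chosen for its difference between these groups and the marker mean itself differed by only -0.35. The share of all genes whose groups stay apart after this subtraction was not computed. The part of alveolar type 2 cells in the level of any of these genes was not tested.

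**Figure D5:**
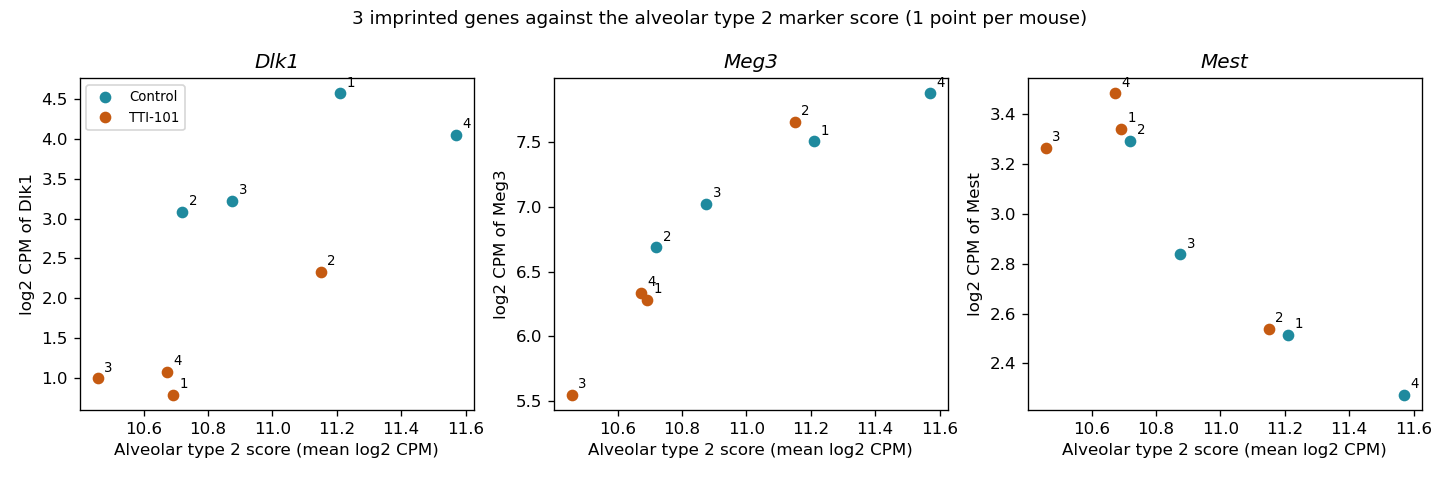
Log2 CPM of Dlk1, Meg3 and Mest against the mean log2 CPM of 8 alveolar type 2 markers, with 1 point per mouse numbered by mouse (teal, control and orange, TTI-101). The marker mean was 11.09 ± 0.38 in control and 10.74 ± 0.29 in treated lungs (SD, n = 4 each), and the r of its deviations from the group means was 0.81 for Dlk1, 0.93 for Meg3 and -0.91 for Mest.

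Other marker lists were counted in the same way. Of 8 proliferation genes, 8 had a lower fitted level in treated lungs and 5 were under an unadjusted p of 0.05, where 3.58% of all genes tested were so in this direction. Their summed level was 64.8 to 153.8 CPM in control and 44.9 to 76.8 CPM in treated lungs, and without control mouse 4, 8 were still lower but 1 was under an unadjusted p of 0.05. Of 12 neuroendocrine markers, a cell type known to express Dlk1, 9 were lower and 1 was under an unadjusted p of 0.05, with summed levels of 28.9 to 65.0 and 31.6 to 59.7 CPM. Of 7 adipocyte markers tested, 7 were higher and 4 were under an unadjusted p of 0.05, with summed levels of 27.2 to 125.5 and 55.8 to 296.2 CPM, and 3 were so without control mouse 4. Of 6 B cell markers, 6 were higher, all under an unadjusted p of 0.05, with summed levels of 83.7 to 232.2 and 210.8 to 436.6 CPM, where 3.02% of all genes tested were so in this direction, and 5 of the 6 were so without control mouse 4. Red blood cell genes were higher in 5 of 5, with 4 under an unadjusted p of 0.05 and summed levels of 58.5 to 263.9 and 205.3 to 1586 CPM. Club cell markers were lower in 6 of 6 genes, with 2 under an unadjusted p of 0.05 and summed levels of 18250 to 43640 and 16040 to 27860 CPM, and ciliated cell markers in 8 of 8 genes, also with 2, at 527 to 1287 and 508 to 1131 CPM. Without control mouse 4, 1 club cell marker was under an unadjusted p of 0.05, and of the ciliated cell markers 7 of 8 were lower and 0 were under it. Of 8 endothelial markers, 8 were higher and 2 were under an unadjusted p of 0.05, or 1 without control mouse 4, with summed levels of 1228 to 3353 and 2828 to 4975 CPM. Fitted levels were higher for 10 of 10 fibroblast, 8 of 8 mesothelial, 7 of 7 cardiomyocyte, 7 of 8 pericyte and smooth muscle and 7 of 8 alveolar type 1 markers, with 0 under an unadjusted p of 0.05. Without control mouse 4, the median log2 fold change fell from 0.34 to 0.18 for fibroblast, 0.63 to 0.31 for mesothelial and 0.80 to 0.44 for cardiomyocyte markers. It fell from 0.28 to 0.07 for pericyte and smooth muscle and from 0.40 to 0.17 for alveolar type 1 markers. Then 1 fibroblast, 2 pericyte and smooth muscle and 2 alveolar type 1 markers were lower. The summed levels in control and treated lungs were 1661 to 4077 and 3620 to 5504 CPM for fibroblasts, 43.8 to 312.7 and 212.3 to 418.5 CPM for mesothelium, and 2569 to 4574 and 4176 to 5645 CPM for alveolar type 1 cells. They were 102 to 849.7 and 601 to 1530.0 CPM for cardiomyocytes, and 522.7 to 1520.0 and 905.9 to 1616 CPM for pericytes and smooth muscle. Of the chondrocyte markers, 3 of 7 were tested and 1 was higher at an unadjusted p under 0.05. Of the skeletal muscle markers, 3 of 9 were tested and Myod1 was at 0 in every lung, and of the thymus markers 0 of 5 were tested. At an adjusted p under 0.05, 0 genes of any of these lists were called by edgeR, and their part in the levels of the imprinted genes was not tested.

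Imprinted genes outside the 10 were read from a list of 61, of which 60 are in the table and 45 were tested. At an adjusted p under 0.05, 0 were called by edgeR and 0 by DESeq2. At an unadjusted p under 0.05, edgeR found 1 higher and 2 lower, which is 6.67% of the 45 against 6.61% of all genes tested. DESeq2 found 5 of the 45 in either direction. Its share over all genes at this threshold was not computed, so no excess can be read from that count. Their median log2 fold change was -0.03, against 0.00 over all genes tested, with 19 higher and 26 lower. Without control mouse 4, 1 of 46 was higher and 0 lower at this threshold. Rasgrf1, a paternally expressed exchange factor that activates Ras, was at 4.55, 6.70, 10.4 and 12.4 CPM in control and at 3.05, 6.61, 2.06 and 3.77 CPM in treated mice, or a fold change of -1.14 ± 0.41 (SE) on the log2 scale (edgeR adjusted p = 0.657). Slc22a3, an organic cation transporter of the Igf2r cluster, was at 3.26 ± 1.86 and 7.64 ± 2.61 CPM (SD, n = 4 each), or a fold change of 1.22 ± 0.45 (SE) on the log2 scale (edgeR adjusted p = 0.657). Of the 13 tested factors that write, read, protect or remove imprints, 0 were under an unadjusted p of 0.05 in either direction, with a median of -0.04. Uhrf1, which brings Dnmt1 to newly copied DNA, was at 11.5 ± 4.48 CPM in control and 8.10 ± 1.58 CPM in treated lungs (SD, n = 4 each). Its highest level, 18.2 CPM, was in control mouse 4, and the other control mice were at 8.51 to 10.1 CPM. Dnmt3l, a cofactor of the methyltransferases in germ cells, was at 0.517 ± 0.268 and 0.931 ± 0.365 CPM (SD, n = 4 each).

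Dlk1 resembles the ligands of Notch, and of the 21 other genes of the Delta-Notch pathway tested, 4 were higher and 1 lower at an unadjusted p under 0.05 (3.02% and 3.58% of all genes tested), with a median log2 fold change of 0.21 and 0 called at an adjusted p under 0.05 by edgeR or DESeq2. Without control mouse 4, 2 were higher and 1 lower. Notch3, the receptor of pericytes and smooth muscle, was at 109, 100.5, 88.3 and 71.8 CPM in control and at 115, 113, 183 and 156 CPM in treated mice. Every treated lung was above every control lung, with a fold change of 0.62 ± 0.20 (SE) on the log2 scale (edgeR adjusted p = 0.657). Mfng, a glycosyltransferase that modifies Notch receptors, was at 28.6 ± 11.5 and 49.5 ± 8.41 CPM (SD, n = 4 each), also without overlap, where 1.53% of all genes tested did not overlap in this direction. Jag1, a Notch ligand, was at 86.9 ± 28.3 CPM in control and 52.1 ± 11.4 CPM in treated lungs (SD, n = 4 each), or a fold change of -0.74 ± 0.25 (SE) on the log2 scale (edgeR adjusted p = 0.657), with overlapping groups.

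In the insulin-like growth factor axis, to which Igf2 belongs, 1 of the 18 other genes tested was higher and 0 were lower at an unadjusted p under 0.05 (3.02% and 3.58% of all genes tested). This was Igfbp3, a binding protein that carries IGFs, at 91.0 ± 20.7 CPM in control and 135.7 ± 22.6 CPM in treated lungs (SD, n = 4 each), or a fold change of 0.58 ± 0.19 (SE) on the log2 scale (edgeR adjusted p = 0.657). Of the 7 other inhibitors of cyclin-dependent kinases beside Cdkn1c, 1 was higher and 1 lower at this threshold, and 0 were so in either direction without control mouse 4. Cdkn2a, which encodes p16 and p19Arf, was at 1.43, 1.79, 1.66 and 5.05 CPM in control and at 1.02, 1.32, 1.33 and 0.851 CPM in treated mice, with its highest level in control mouse 4. It was lower in every treated lung, where 1.43% of all genes tested did not overlap in this direction. Its fold change was -1.12 ± 0.46 (SE) on the log2 scale (edgeR adjusted p = 0.657). Cdkn2b was at 22.9 ± 5.35 and 32.6 ± 8.38 CPM (SD, n = 4 each). Of the 11 tested genes of the fetal growth program, 0 were under an unadjusted p of 0.05, with a median of 0.03, and Gpc3, a glypican that restrains growth, was at 118.0 ± 50.1 and 174 ± 65.7 CPM (SD, n = 4 each). Of 11 Wnt target genes, 0 were higher and 1 lower at this threshold, with a median of 0.26, and the counts were the same without control mouse 4. Ccnd1, which encodes cyclin D1, was at 202.0, 209, 229 and 384 CPM in control and at 152, 151, 146 and 142 CPM in treated mice, or a fold change of -0.79 ± 0.21 (SE) on the log2 scale (edgeR adjusted p = 0.657). Its groups did not overlap either, and its highest level was also in control mouse 4. The genes of these lists are named for low p-values or for groups that did not overlap.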

How the data were processed

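Whole-lung RNA of 8 CC-LR mice was sequenced, with 1 library per mouse. Poly(A) libraries were prepared with a strand-marking kit and sequenced as paired ends by a provider. The authors deposited whole-number counts per Ensembl gene with no normalization. The submitters' processing notes name STAR, DESeq2 and the build mm10, and the counting tool and its strand setting are not given in the sources used here. No per-sample column was left unused.

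In R 4.3.3, edgeR 4.0.16 filtered genes (filterByExpr, minimum count 10), scaled libraries by TMM and compared the groups of 4 by robust quasi-likelihood F-tests with Benjamini-Hochberg adjustment over the 17138 genes tested. Log2 CPM used a prior count of 2, and FPKM used the gene lengths in the table. DESeq2 1.42.0, limma-voom (limma 3.58.1), other scalings and filters, a replicate block, Xist as a covariate and each mouse left out were alternatives. The code was tested on simulated data.

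The members, gene lists and markers were chosen with earlier results of these data known. Beside the members, the genes named were the genes of each pathway list with the lowest p-values or with groups that did not overlap, the 5 genes most like Dlk1 by each measure and genes near Dlk1 or H19.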

Additional observations from a re-analysis of the deposited data

Results flagged for a closer look

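In 3 of the 22 groups of 4 mice tested, 1 mouse lay far from the other mice of its group, with a gap to its nearest neighbour above Dixon's critical value when divided by the group's whole range. Chance flags about 1 in 20 groups, which is 1.1 of 22, if the groups are independent and their values normally distributed. The groups here share libraries, and the deviations of Dlk1 and Mirg, flagged in the same mouse, had an r of 0.83. The 3 flags can therefore not be set directly against 1.1. For Dlk1, TTI-101-treated mouse 2 was at 4.92 CPM and the next treated mouse at 2.01 CPM, a gap of 0.883 of the range. For Mirg, the same mouse was at 5.76 CPM and the next at 2.56 CPM, a gap of 0.864 of the range. For Plagl1, control mouse 4 was at 40.6 CPM and the next control mouse at 30.7 CPM, a gap of 0.874 of the range.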

How the results depend on the processing

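Over the 16 alternatives that gave a value, including each mouse left out, the log2 fold change of Dlk1 lay between -2.97 and -2.12, that of Rian between -1.47 and -0.60, that of Meg3 between -1.24 and -0.44, that of Peg3 between 0.30 and 0.81 and that of Mest between 0.31 and 0.66. Those of Cdkn1c (-0.10 to 0.11), Plagl1 (-0.27 to 0.09) and Mirg (-0.60 to 0.00) lay on both sides of 0 or reached it, and H19, which gave 15 values, lay between -0.81 and -0.05. Genes at an adjusted p under 0.05 numbered 0 in edgeR, 4 by DESeq2's Wald test and 1 with Xist as a covariate, and 0 to 1 with each mouse left out (1 without control mouse 1 and 1 without TTI-101-treated mouse 3). Genes at an unadjusted p under 0.01 numbered 116, 398 by DESeq2 and 282 with no filter, and 36 to 613 with each mouse left out. These were 575 without control mouse 1, 74 without control mouse 3, 62 without treated mouse 1, 613 without treated mouse 2 and 36 without treated mouse 3. The median log2 fold change of the IGF axis was -0.02, and 0.12 by limma-voom. The causes were not tested. Same-numbered mice of the 2 groups correlated in their deviations at r = 0.393, 0.0822, 0.158 and 0.0707, and differently numbered mice at r = -0.421 to 0.167. The main fit did not take the numbers as pairs, and whether they mark a shared factor was not tested. With the replicate number as a block, the fold change of Dlk1 was -2.49, of Meg3 -0.87 and of Rian -1.07 on the log2 scale. The list counts without control mouse 4, the correlations without 2 mice together and the ratios without each mouse were added after seeing the data. With 34 or fewer counts per lung, H19 and Igf2 are limited by depth.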
